A study of Ramazzottius varieornatus with 27 samples.

Results

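The genes described here are the 54 of *Ramazzottius varieornatus*, a tardigrade, whose RNA rose by 4 h after gamma irradiation and whose mean over 12 h to 21 h was also above the non-irradiated controls. They were picked from 13369 genes with a single transcript row among 13920 genes in all. Values are TMM-normalized TPM, a relative abundance corrected for transcript length and then scaled per library. The rule took the log2 of each group mean plus 1. A gene had to have a control mean of at least 2, a rise of at least 0.7 on this scale at 4 h with the lowest 4 h library above the highest control library, and a rise of at least 0.7 in the mean of 12, 15, 18 and 21 h. The libraries of the controls, 4 h, 12 h, 15 h, 18 h and 21 h therefore chose the genes, and their values are given as a description with no test. The libraries of 6 h, 9 h and 24 h took no part in the choice.

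Whole animals in pools of 30 gave the RNA, either without irradiation (Ctrl) or at 4, 6, 9, 12, 15, 18, 21 and 24 h after 500 Gy of 60Co gamma ray, followed by incubation at 22 °C. Each of the 9 groups had 3 technical replicates, which gives 27 libraries. By the methods, the 3 samples of a time were drawn at random from plates of animals irradiated together, so p-values measure the spread between such pools only. No sampling time is given for the controls, so time on the plate and time after irradiation cannot be told apart. In such bulk samples fewer cells of a type and less RNA per cell cannot be told apart.

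Gamma rays break DNA and, by splitting water, make reactive oxygen species. Animal cells answer with damage signalling that halts division and with the transcription of genes for repair, and some of these transcripts appear early and decay while others last. *R. varieornatus* survives drying and doses of radiation that kill most animals, and its protein Dsup, which binds nucleosomes, is known to shield DNA. None of the 54 gene IDs (0 of 54) is paired with a name, a product or a sequence in the sources used here, so the genes are called by their numbers and no role is given to any of them.

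The libraries were prepared with different numbers of PCR cycles, 15 for 4 h and for 6 h replicates 1 and 2, 21 for 6 h replicate 3 and for 9 h to 21 h, and 23 for 24 h. For the controls no cycle number is named. Transcripts above 0 numbered from 9575 (9 h replicate 1) to 13667 (6 h replicate 2). In 9 h replicate 1, which by the methods had shown adapter dimers, 34 of the 54 genes (63.0%) had the lowest value of the 3 libraries, against 48.1% of the 9917 genes with a single row and a control mean of at least 2. The part of cycle number or of this library in the results was not tested, and values without the library are given where it changes a result.

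The 54 genes were of modest level in the controls. Their control means ran from 2.01 to 263 with a median of 17.8, against a median of 39.7 over the 9917 genes. The rule used these same control values and favoured genes low in them, so this difference is a description with no test. The rise at 4 h ran from 0.71 to 4.34 on the log2 scale, with a median of 1.25. The mean rise over 12 h to 21 h ran from 0.71 to 2.24, with a median of 1.02, and in 38 of the 54 genes it was the smaller of the pair. Just inside the threshold at 4 h lay g1095, which went from a mean of 38.2 in the controls to 62.9, and g1740, from 2.07 to 4.02. Just outside it lay g8034, at 9.37 and 15.8, and g1660, at 3.20 and 5.75. At the threshold on the later mean, g7155 and g7106 lay inside with rises of 0.71 and 0.71, and g7276 and g622 outside with rises of 0.69 and 0.67. At the threshold on the control mean, g7732 and g1740 lay inside (2.01 and 2.07), and g6003 and g5506 outside (1.73 and 1.20).

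The later rise was held at every time in fewer genes than not. At each of 12, 15, 18 and 21 h the group mean was higher by at least 0.7 in 22 of the 54 genes, while 17 reached this at 3 of the 4 times and 15 at 2 of them. Over all 8 times after irradiation, 16 genes kept a rise of at least 0.7. In 9 genes (16.7%) every library of every time lay above every control library, against 3.09% of the 9917 genes. The controls, 4 h and 12 h to 21 h made the selection, so these shares carry no test. The 9 genes were g3999, g6898, g7515, g7732, g7793, g9591, g10837, g12087 and g13857. The name of an early rise held to 21 h therefore describes the mean of the late times, not each time. The highest group mean fell at 4 h for 17 genes, 9 h for 10, 18 h for 9 and 24 h for 8, and the other 10 genes peaked at 6, 12, 15 or 21 h.

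**Figure D1:**
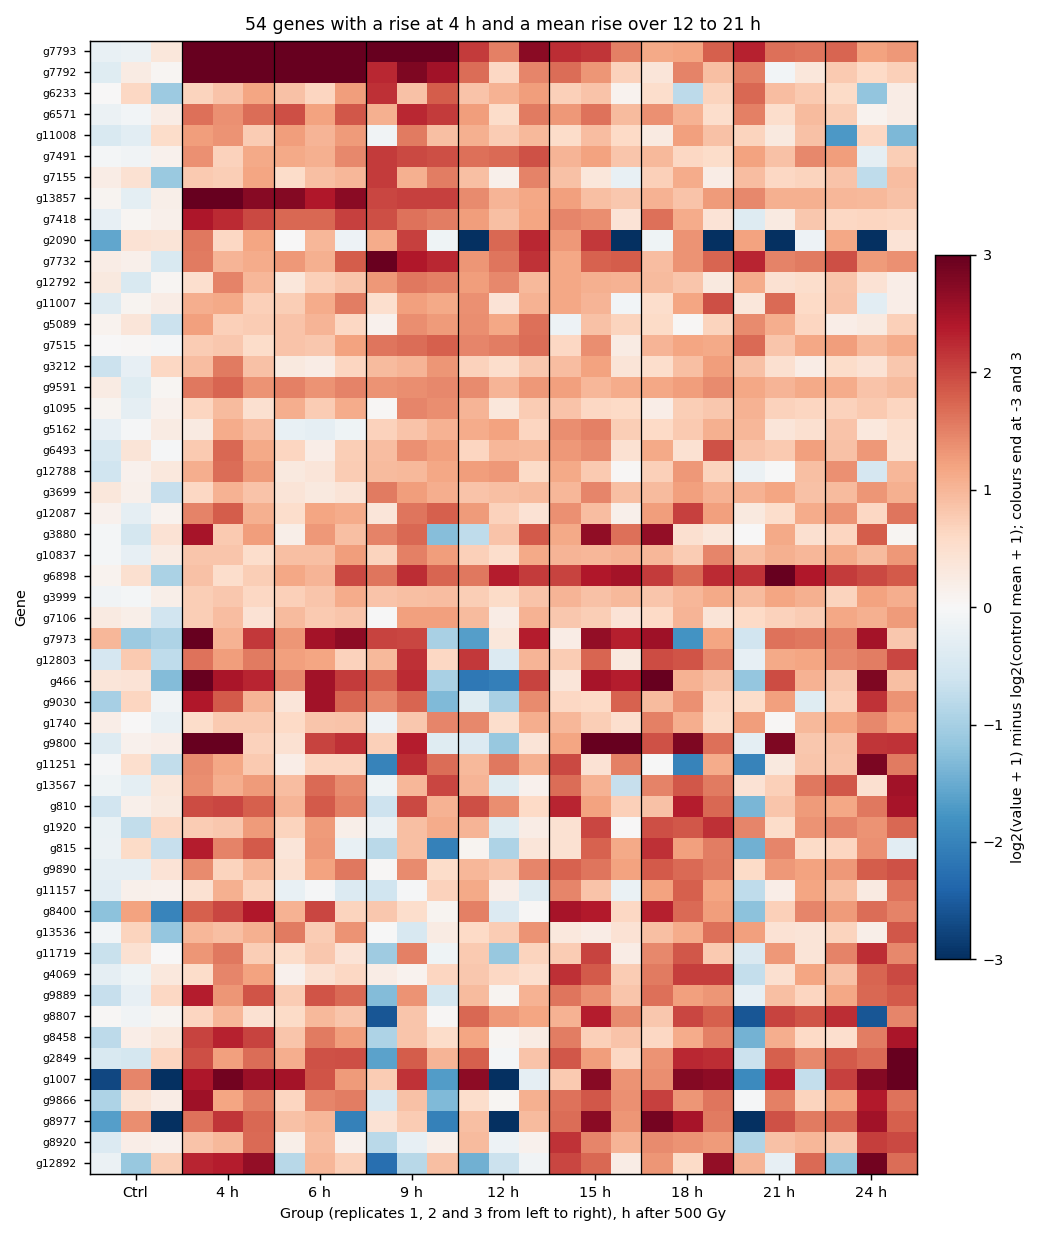
Heat map of the 54 genes (rows) in 27 libraries (columns, replicates 1 to 3 of each group from left to right), coloured by log2(value + 1) minus the log2 of the control mean plus 1, and ordered from genes with the highest 9 h mean relative to 24 h (top) to the lowest (bottom). Every gene is red in the 3 libraries of 4 h, as the selection required. At 9 h 6 genes (11.1%) had a mean below that of the controls, against 53.7% of the 9917 genes. The count was 3 without 9 h replicate 1, and 3 to 8 with any 1 library of 9 h or of the controls left out. The selection favoured genes low in these same controls, so these counts carry no test.

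The 3 times left out of the selection were also mostly above the controls. The median gene stood above the control mean by 1.01 (6 h), 1.12 (9 h) and 1.21 (24 h) on the log2 scale, against medians of 0.02, -0.07 and -0.06 over the 9917 genes. All 3 libraries lay above all 3 controls in 34 of the 54 genes at 6 h, where 21.4% of the 9917 genes did. The count was 22 of 54 at 9 h, where 20.7% did, and 37 of 54 at 24 h, where 21.0% did. Without 9 h replicate 1 it was 34 of 54 at 9 h, a condition on fewer libraries that 29.0% of the 9917 met. These counts share their control libraries with the selection, which favoured genes that were low in exactly these controls, and so they carry no test. In the groups that made the selection, the 4 h count was 54 by rule (10.3% of the 9917), the 12 h count 29 (27.0%), the 15 h count 30 (25.0%), the 18 h count 41 (22.2%) and the 21 h count 23 (23.8%).
With the TMM factor undone, the median of the 9917 genes against the controls moved up by 0.11 (6 h), 0.17 (9 h) and 0.15 (24 h). Relative to that median the 54 genes stood at 1.01, 1.18 and 1.25, and with the factor at 1.00, 1.19 and 1.27.

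**Figure D2:**
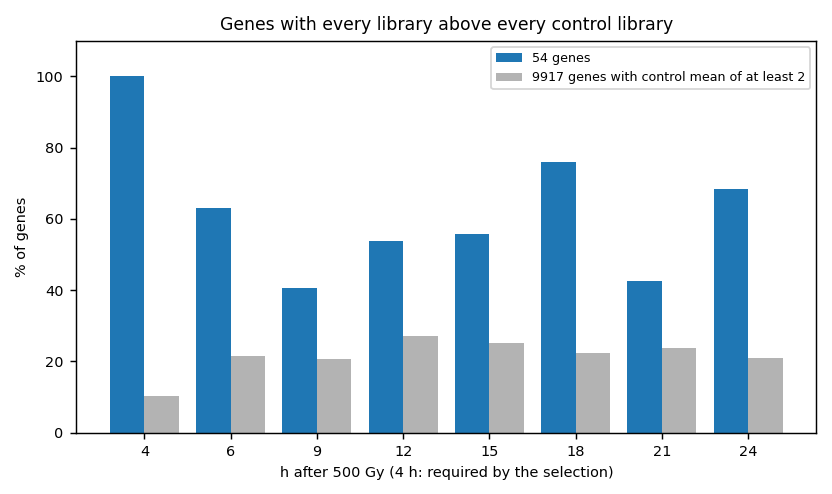
Share of genes (%) in which all 3 libraries of a time lay above all 3 controls, by hours after irradiation, for the 54 genes (blue) and the 9917 genes with a control mean of at least 2 (grey). Blue bars reach 63.0% (6 h), 40.7% (9 h) and 68.5% (24 h), and 100% at 4 h because the selection required it.

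On the log2 scale of the selection, the largest rises at 4 h were those of g7792, g7793 and g13857, and all 3 declined afterwards. In g7792 the controls held 9.58, 15.1 and 13.1, and the 4 h libraries 264, 347 and 208. Its mean rose 21.7-fold, from 12.6 ± 2.78 to 273 ± 69.9 (SD, n = 3), the largest rise at 4 h among the 54 genes. The 6 h mean was 178 ± 51.0 and the 9 h mean 78.3 ± 14.5, followed by 33.0 ± 11.7 at 12 h and, last, 21.2 ± 1.42 at 24 h (SD, n = 3). By 24 h its mean was 7.74% of the 4 h mean but still 1.68 times that of the controls, and its lowest 24 h library (19.7) lay above its highest control (15.1).
By its group means the gene with the next number, g7793, kept its level longer. Its controls held 12.7, 13.1 and 19.5, and its 4 h libraries 259, 309 and 226, a 17.5-fold rise of the mean. At 9 h it held 192, 202 and 217, which is 77.0% of its 4 h mean, whereas g7792 had come down to 28.6% of its own. In the limma test given below, neither change from 6 h to 9 h was called. The changes were -1.16 for g7792 and -0.17 for g7793 (limma adjusted p = 0.0764 and 0.765). The difference between these genes was not tested. The 12 h mean of g7793 was 72.4 ± 30.3 and its 24 h mean 42.7 ± 9.10 (SD, n = 3), with all libraries above the controls.
In g13857 the 4 h libraries held 260, 304 and 206, against 31.8, 24.6 and 34.3 in the controls, an 8.48-fold rise of the mean. It went through 192 ± 24.3 at 6 h and 127 ± 3.22 at 9 h to 59.5 ± 2.53 at 24 h (SD, n = 3), and from 12 h to 24 h its group means stayed between 59.5 and 71.0. Its replicates were close at 9 h, with 123, 129 and 128. The ratio of means was larger in g9800, at 9.73-fold, from 3.42 ± 0.915 to 33.2 ± 24.8 (SD, n = 3), but its 4 h libraries held 54.7, 38.9 and 6.13, and at 12 h its mean of 2.71 was below that of the controls.

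**Figure D3:**
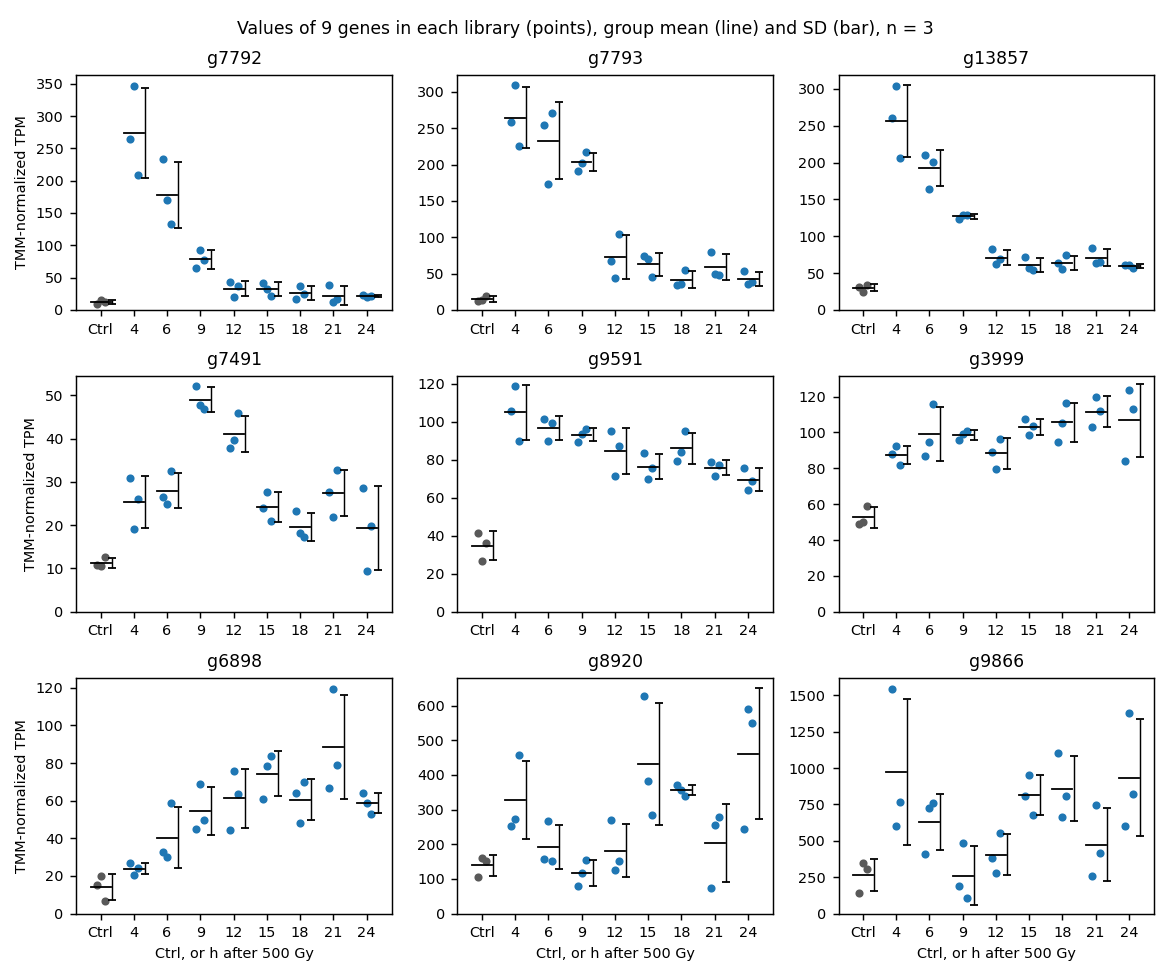
Values (TMM-normalized TPM, linear axes from 0) of 9 genes in each library (points, replicates 1 to 3 from left to right within a group), with the group mean (line) and SD (bar, n = 3), by hours after irradiation. The top row declines from 4 h, with g7792 from 273 to 21.2 at 24 h. Of the others, g7491 is highest at 9 h, g9591 and g3999 vary least and g6898 has its highest mean at 21 h. In g8920 and g9866 the lowest mean after irradiation is that of 9 h.

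Differences among 6 h, 9 h and 24 h test the course of the genes in libraries that did not choose them. With limma on log2(value + 1), fitted to 12820 transcripts in all 27 libraries and called at an adjusted p under 0.05 with a ratio of means over 2, all 54 genes passed the filter on low values. From 6 h to 9 h the genes went both ways, with a median estimate of -0.11 on the log2 scale. Over all transcripts tested the median was also -0.11. The median of the 54 was 0.06 without 9 h replicate 1 and -0.26 without 9 h replicate 2, so its sign rests on a single library. In this step 2 of the 54 were called higher, where 0.741% of all tested were, and 0 were called lower, where 0.975% were. At an unadjusted p under 0.05 there were 12 genes, 7 of them higher, and 21.6% of all tested reached that level. With 6 h replicate 3 alone standing for 6 h, and likewise with the 2 groups fitted alone, 0 of all transcripts tested were called.
The called genes were low at 6 h. In g5162 the 6 h libraries held 21.6, 20.9 and 23.2, below the 9 h libraries with 42.0, 47.1 and 53.6. Its change was 1.08 (SE 0.241, limma adjusted p = 0.0185) and 0.99 against 6 h replicate 3 alone, and its 6 h mean was 0.864 times that of the controls. In g3699 the 6 h libraries held 9.27, 8.66 and 9.27 and the 9 h libraries 22.2, 17.8 and 15.8, with no overlap, a change of 0.95 (SE 0.254, limma adjusted p = 0.0400) and of 0.92 against 6 h replicate 3 alone. The value in 6 h replicate 3, which had the 21 cycles of 9 h, was 23.2 in g5162 and 9.27 in g3699. The part of cycle number was not tested. Without 6 h replicate 1 or without 6 h replicate 2, neither passed the test (adjusted p = 0.0708 and 0.0956 for g5162, 0.124 and 0.174 for g3699, limma), and g3699 was also lost without 6 h replicate 3 (0.0537), 9 h replicate 1 (0.0798) or 9 h replicate 2 (0.0678). The lowest estimates were -1.61 for g9889 and -1.51 for g9866, which did not pass (limma adjusted p = 0.0656 and 0.0819).

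From 9 h to 24 h, 5 of the 54 genes fell, where 0.460% of all tested did, and 2 rose, where 0.179% did. At an unadjusted p under 0.05 there were 22 genes, 9 of them higher, against 15.4% of all tested. The median estimate over the 54 genes was 0.27, against 0 over all transcripts, and it ran from -0.03 without 9 h replicate 1 to 0.59 without 9 h replicate 2, so its sign rests on a single library. The count of calls was 4 without 9 h replicate 1 or 24 h replicate 2 and 3 without 24 h replicate 3. The genes that fell were the early responders above and a pair of others. The change was -2.25 for g7793 (SE 0.279, limma adjusted p = 1.47e-04) and -1.82 for g7792 (SE 0.367, adjusted p = 0.0205). It was -1.08 for g13857 (SE 0.164, limma adjusted p = 0.00195). In all 3 genes every 24 h library lay below every 9 h library. Without 24 h replicate 2 or replicate 3, g7792 no longer passed (adjusted p = 0.0547 and 0.0569, limma).
The other genes that fell had been highest at 9 h. In g7491 the 9 h libraries held 52.2, 47.8 and 46.7 and the 24 h libraries 28.7, 9.33 and 19.8, a change of -1.43 (SE 0.273, limma adjusted p = 0.0137). In g6571 they held 29.7, 69.9 and 61.8 at 9 h and 23.5, 14.7 and 16.2 at 24 h, a change of -1.46 (SE 0.330, limma adjusted p = 0.0379). The groups do not overlap in either gene. Without 9 h replicate 1 the adjusted p of g7491 was 0.0531, and that of g6571 rose to 0.0805 on leaving out 9 h replicate 2, 0.0625 for 9 h replicate 3, 0.106 for 24 h replicate 2 and 0.107 for 24 h replicate 3 (limma).
In the genes that rose, g8920 and g9866, the 9 h means lay near those of the controls. Their changes from 6 h to 9 h did not pass the test (limma adjusted p = 0.355 and 0.0819). In g8920 the 9 h libraries held 79.2, 117 and 154 and the 24 h libraries 244, 591 and 549, with no overlap, a change of 1.92 (SE 0.437, limma adjusted p = 0.0383). Its controls held 105, 160 and 152. In g9866 the 9 h libraries held 189, 488 and 104 and the 24 h libraries 605, 1378 and 820, again with no overlap, a change of 2.04 (SE 0.492, limma adjusted p = 0.0493). Both calls were lost when 9 h replicate 1 was left out (adjusted p = 0.156 and 0.148), likewise 24 h replicate 2 (0.121 and 0.152) or 24 h replicate 3 (0.124 and 0.105), that of g8920 also without 9 h replicate 2 (0.0530) and that of g9866 without 9 h replicate 3 (0.0989, all limma). The call of g9866 was also lost with a pseudocount of 0.1 (limma adjusted p = 0.0514), no filter (0.0567), the TMM factor undone (0.0557) and no mean-variance trend (0.0648), and that of g8920 with no trend (0.0519). With the 2 groups fitted alone, only g7793 and g13857 kept their calls, among 6 transcripts called in all. The 24 h libraries had 23 PCR cycles and the 9 h libraries 21, so cycle number and time cannot be told apart here.

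From 6 h to 24 h, 6 of the 54 genes fell, where 1.79% of all tested did, and 0 rose, where 0.850% did, with 14 genes at an unadjusted p under 0.05 (5 of them higher), a level that 22.0% of all tested reached. The largest falls were again those of g7792, at -2.98 (SE 0.367, limma adjusted p = 6.52e-05), and of g7793, at -2.41 (SE 0.279, adjusted p = 3.14e-05). In g13857 it was -1.67 (SE 0.164, limma adjusted p = 4.42e-06). These 3 calls held under all 14 alternatives, 6 h replicate 3 alone (21 cycles) among them. The alternative that only dropped the minimum ratio of means could not lose a call. The genes g11008, g6571 and g7418 fell by 2.00, 1.31 and 1.19 on the log2 scale (limma adjusted p = 0.0185, 0.0224 and 0.0196). In g7418 the 6 h libraries held 173, 173 and 216 and the 24 h libraries 80.8, 82.1 and 80.8, a narrow range at a level above its controls (43.8 to 57.6). In g11008 the 24 h values of 0.732, 7.89 and 1.26 overlapped the controls, which held 3.19, 3.59 and 7.45. The count was 3 without 6 h replicate 1 or 24 h replicate 3. Leaving out any of several single libraries ended these last 3 calls, with adjusted p from 0.0504 to 0.129 (limma). So did 6 h replicate 3 alone (25 transcripts called in all), and for g6571 and g11008 the 2 groups fitted alone. For g11008 these were 6 h replicates 1 and 2 and 24 h replicates 1 and 3, for g7418 each 6 h replicate and 24 h replicate 3, and for g6571 6 h replicates 1 and 3 and 24 h replicates 2 and 3.

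**Figure D4:**
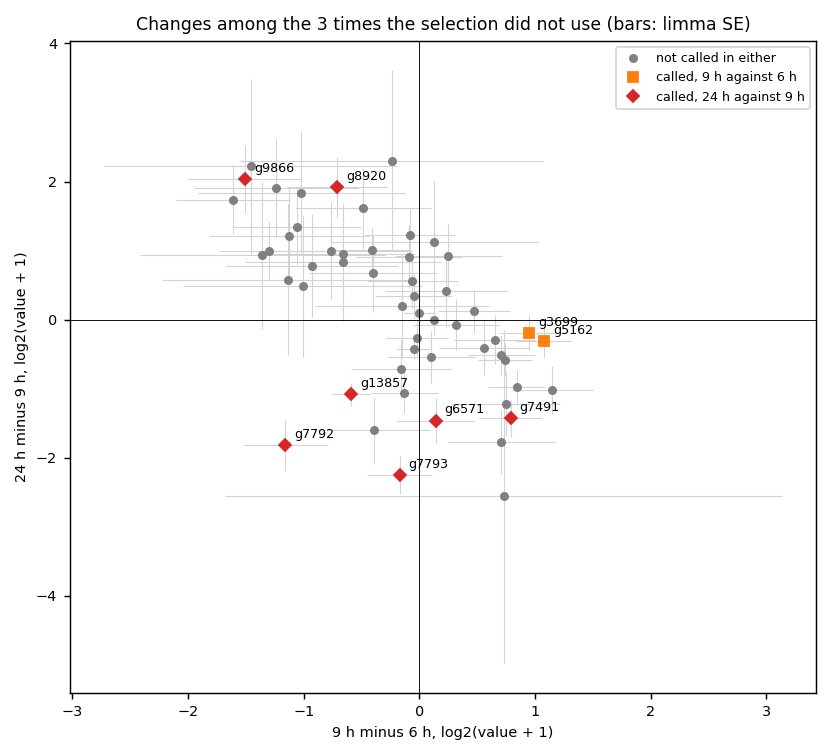
Change from 6 h to 9 h (horizontal) and from 9 h to 24 h (vertical) of the 54 genes in log2(value + 1), with limma standard errors as bars. Genes called from 9 h to 24 h (diamonds) lie at 2.04 and 1.92 (g9866 and g8920) and between -1.08 and -2.25, and those called from 6 h to 9 h (squares) are g3699 at 0.95 and g5162 at 1.08; both axes share the 9 h libraries, so the slope of the cloud is not a result.

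Some genes varied little once raised. By the coefficient of variation over the 24 irradiated libraries, the steadiest were g3999 (12.3%), g9591 (15.6%) and g10837 (18.5%). In g9591 the controls held 41.7, 26.7 and 36.1, and the 24 irradiated libraries ran from 63.9 to 119, so that the groups stood apart at every time. Its group mean moved from 105 ± 14.4 at 4 h to 69.5 ± 6.07 at 24 h (SD, n = 3), and the change from 6 h to 24 h was -0.48 (SE 0.144, limma adjusted p = 0.0527). In g3999 the controls held 48.6, 50.1 and 59.1. Its 4 h mean was 87.4 ± 5.25, its highest mean 112 ± 8.59 (21 h) and its 24 h mean 107 ± 20.5 (SD, n = 3). In g10837 the control mean was 22.9 ± 4.04, the 4 h mean 39.0 ± 4.60 and the 24 h mean 51.7 ± 6.48 (SD, n = 3).
The opposite course, a small early rise with a larger late one, was clearest in g6898, which had the largest late mean rise (2.24). Its controls held 15.4, 20.1 and 6.84 and its 4 h libraries 26.6, 20.7 and 24.2, so that the lowest 4 h library stood barely above the highest control. The mean rose to 54.5 ± 12.6 at 9 h and 88.4 ± 27.6 at 21 h, and was 58.6 ± 5.40 at 24 h (SD, n = 3). At 6 h it held 32.5 and 29.8 in the replicates with 15 cycles and 58.8 in replicate 3 with 21 cycles. The late mean rise of g1007 was 1.64, but it varied widely between replicates, with 0.376, 24.1 and a listed 0 in the controls, 48.3, 66.8 and 53.6 at 4 h and 58.0, 0.0800 and 6.53 at 12 h. In g7732 the controls held 2.50, 2.33 and 1.21, and the mean of 6.15 ± 1.46 at 4 h became 16.9 ± 4.83 at 9 h before 7.83 ± 2.24 at 24 h (SD, n = 3). Its step from 6 h to 9 h was 1.15 (SE 0.351) and did not pass the test (limma adjusted p = 0.0635).

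The genes of highest level were also among those with a lower mean at 9 h than at 4 h and 24 h. In g9866, the most abundant before irradiation, the controls held 138, 344 and 305 and the mean of 263 ± 109 became 971 ± 503 at 4 h, fell back to 261 ± 201 at 9 h and stood at 857 ± 224 by 18 h (SD, n = 3). For g8458 the control mean was 225 ± 83.4, the 4 h mean 985 ± 115, the 9 h mean 283 ± 149 and the 24 h mean 733 ± 459 (SD, n = 3). For g9889 these were 154 ± 74.6, 584 ± 204, 187 ± 181 and 469 ± 110 (SD, n = 3). In g8400 the controls held 60.7, 336 and 35.9, a wide range, and the 4 h mean of 619 ± 138 gave way to 204 ± 49.9 at 9 h, with 593 ± 321 again by 15 h (SD, n = 3). The libraries of 9 h and of the controls overlapped in all 4 genes. From 6 h to 9 h none of the 4 passed the test (limma adjusted p = 0.0819 for g9866, 0.266 for g8458, 0.0656 for g9889 and 0.557 for g8400). In 9 h replicate 1 g8458 held 117, against 404 and 328 in the other replicates, and g9889 held 61.7, against 395 and 106. That library was not the lowest at 9 h in g9866 (189, 488 and 104) or g8400 (252, 208 and 153).

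Replicates of one time differed more for these genes than for most. Pooled over 6 h, 9 h and 24 h, the SD of log2(value + 1) between replicates had a median of 0.555 over the 54 genes and of 0.344 over the 9917. Among genes with a control mean of at least 20 it was 0.556 for 25 of the 54 and 0.277 for 6849 in all. The range within the 54 was wide. The SD was 0.095 in g9591 and 0.116 in g13857, and 1.36% and 2.94% of the 9917 genes had a smaller one, while 12 of the 54 genes lay above the 90th percentile. Among the 175 genes that met the conditions at 4 h but not the later one, the median was 0.580, and among the 1086 with the later rise but not the one at 4 h it was 0.250.

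**Figure D5:**
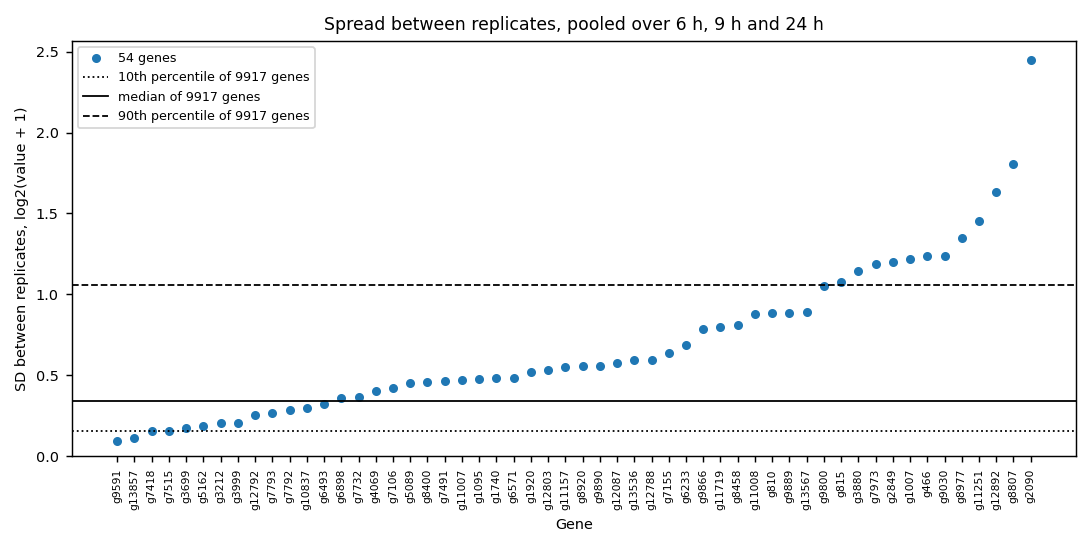
SD between replicates of log2(value + 1), pooled over 6 h, 9 h and 24 h, for each of the 54 genes from lowest to highest, with the 10th percentile, median and 90th percentile of the 9917 genes as lines. The genes run from g9591 at 0.095 to g2090 at 2.45, against a median of 0.344 over the 9917.

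Some genes moved together from library to library, although the 4 with the widest spread (g2090, g8807, g12892 and g11251) had no partner with an r of at least 0.7. The genes of this paragraph were chosen after their values were seen. In g466 the 12 h libraries held 8.51, 9.07 and 170, and in g7973 they held 4.07, 19.3 and 80.5. In g3880 they held 47.0, 148 and 290. Replicate 3 was thus the highest of the 12 h libraries in all 3 genes, and at 4 h and 18 h replicate 1 was, with 516 and 342 in g466. Over 27 libraries, Pearson's r of the deviations from the group means was 0.82 for g466 with g7973, 0.79 for g466 with g3880 and 0.83 for g3880 with g7973. Another set was low in 21 h replicate 1 and 9 h replicate 1. There g810 held 22.6 at 21 h, against 108 and 147 in the other replicates, g2849 held 40.6 against 225 and 175, and g8458 held 84.1 against 481 and 343. Their r was 0.88 for g810 with g8458 and 0.86 for g810 with g2849. Of the 1431 pairs among the 54 genes, 35 had an r of at least 0.7, involving 26 genes, and the median r was 0.1. The points share their libraries and scaling, so these values describe the libraries and carry no p. The share among pairs of other genes was not computed, so it cannot be said whether moving together is particular to the 54.
Single libraries were low for many of the genes. In 15 h replicate 3, 36 of the 54 genes (66.7%) had the lowest value of the 3 libraries, against 32.9% of the 9917, in 12 h replicate 2 it was 32 (59.3%, against 34.2%), and in 21 h replicate 1 it was 30 (55.6%, against 36.2%). At 6 h, replicate 3 had the highest value in 26 (48.1%, against 37.9%). The gene g2090 was listed at 0 in 12 h replicate 1, 18 h replicate 3, 21 h replicate 2 and 24 h replicate 2 and at 0.01 in 15 h replicate 3, while the other 2 libraries of these times held between 64.9 and 348. In g8807 the value was 0 in 9 h replicate 1, 21 h replicate 1 and 24 h replicate 2, against 5.08 to 26.6 in the other libraries of those times.

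Consecutive numbers occurred in 3 pairs of the 54 genes, and the files do not say whether consecutive numbers mean neighbours in the genome. In g9889 and g9890 the deviations from group means went together most of all 1431 pairs (r = 0.93 over 27 libraries). Their courses differed in size, as the control mean of g9890 was 50.2 ± 15.1, its 4 h mean 106 ± 28.1, its 9 h mean 87.6 ± 44.2 and its 24 h mean 166 ± 36.0 (SD, n = 3). For g7792 and g7793 r was 0.91 over the values and 0.58 over the deviations. For g11007 and g11008 the deviations were not correlated (r = 0.00), and g11007 had a control mean of 7.18 ± 1.69, a 4 h mean of 15.2 ± 2.54 and a 24 h mean of 9.23 ± 4.19 (SD, n = 3).
The profile closest to the average of the 54, by Pearson's r of the 9 scaled group means, was that of g810 (0.882), followed by g12087 (0.882), g6493 (0.865) and g12803 (0.847). In units of the SD over groups, this average was -1.44 for the controls, 0.67 for 4 h, 0.02 for 6 h, 0.42 for 18 h and -0.28 for 21 h. In g12087 the controls held 23.7, 17.9 and 23.2 and the 4 h libraries 62.2, 79.2 and 46.2, and its lowest irradiated library (24.3) was above all 3 controls. In g6493 the control mean was 8.27 ± 2.68, the 4 h mean 21.3 ± 7.53 and the 24 h mean 16.6 ± 5.03 (SD, n = 3).

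For the nearest other lists the values in the libraries left out of the selection were as follows. The 175 genes with the rise at 4 h alone had a median change of -0.44 from 9 h to 24 h, with 21 called lower (12.0%) and 1 higher, beside 5 (9.26%) and 2 of the 54. From 6 h to 24 h their median was -0.55, with 41 lower (23.4%) and 4 higher, beside a median of 0.15, with 6 (11.1%) and 0, for the 54. With a library left out, this median of the 54 ran from 0.03 to 0.29. It was -0.07 with 6 h replicate 3 alone. The 1086 genes with the late rise alone had a median change of 0.34 from 6 h to 9 h and 0.36 from 6 h to 24 h, with 17 and 15 called higher and 0 lower in either. The lists were split by values at 12 h to 21 h, which bear on the change to 24 h, and no difference between them was tested.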

How the data were processed

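RNA of 27 libraries (9 groups of 3) was analysed. The authors mapped 75 bp single-end reads to the v101 coding sequences with Bowtie2, estimated TPM per transcript with RSEM and scaled libraries by TMM. The authors thus deposited TPM, a normalized signal. Counts were not used here, so no counting interval is given. The 54 genes and the rules for naming genes were chosen with earlier results of these data known. The study used a count model. Here log2(value + 1) was fitted with limma 3.58.1 in R 4.3.3 (9 group means, trend, two-sided, Benjamini-Hochberg adjustment over 12820 transcripts that reached 1 in 3 or more libraries, ratio of means over 2). The log scale understates changes of low genes. The fit was tested on simulated data with independent noise for each transcript. Deviations shared between genes were not simulated, so that test does not cover them. Among the 54, genes were named for the largest early or late rise, control level, called changes, steadiness, thresholds, consecutive numbers and likeness to the mean, and those outside this were picked after their values were seen. Reference locus tags matched 0 of the IDs. Alternatives covered pseudocount, filter, scaling, fit, replicate block, thresholds and libraries left out. Figures used Python 3.11.15 and matplotlib 3.10.9.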

Additional observations from a re-analysis of the deposited data

Results flagged for a closer look

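Changes between times that were called (limma, log2 scale) were those from 6 h to 9 h of g3699 (0.95) and g5162 (1.08). From 9 h to 24 h they were those of g6571 (-1.46), g7491 (-1.43), g7792 (-1.82), g7793 (-2.25), g13857 (-1.08), g8920 (1.92) and g9866 (2.04). From 6 h to 24 h they were those of g6571 (-1.31), g7418 (-1.19), g7792 (-2.98), g7793 (-2.41) and g13857 (-1.67), and g11008 fell by 2.00. Calls other than those of g7793 and g13857, and of g7792 from 6 h to 24 h, were lost under some settings, as given above.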

How the results depend on the processing

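The rule found 22 genes with both thresholds at 1, and 48 to 113 with a library left out. It found 93 without Ctrl replicate 2, of which 45 were among the 54, and 113 without Ctrl replicate 3, of which 43 were. With a pseudocount of 0.1, the TMM factor undone, several rows summed or no control minimum it found 63, 79, 57 and 76. From 6 h to 9 h, 0 of the 54, and 0 of all tested, were called with the 2 groups fitted alone or with 6 h replicate 3 alone, and 0 to 3 with a library left out (1 without 9 h replicate 1). From 9 h to 24 h, 2 were called with the 2 groups fitted alone and 3 to 10 with a library left out. From 6 h to 24 h, 3 were called with 6 h replicate 3 alone, chosen after seeing the data, and 3 to 7 with a library left out. In fits with a lone library it is taken to vary like the other groups. Of 203 refits of the 15 called changes, 150 kept the call, 53 lost it and 0 reversed. Those that only dropped the minimum ratio of means could not lose a call and are counted among the 150. The median against the controls ran from 0.94 to 1.09 at 6 h, 0.84 to 1.27 at 9 h and 1.14 to 1.26 at 24 h with a library left out. Among 6 h, 9 h and 24 h, the deviations of same-numbered samples had an r of -0.09 to 0.01 over the transcripts tested. A link limited to some genes need not show in such an r, and the other groups were not checked. With the replicate block 2, 7 and 6 of the 54 were called in the 3 comparisons, as without it. Depth was not used here, so no limit of detection is given. In the study's read counts, every 24 h library had fewer reads mapped to the coding sequences than any library of the other groups. The part of depth in zeros, low values and the spread between replicates was not tested.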
